A study of Mus musculus with 20 samples.

Results

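Collagen genes were followed in the TL1 line of mouse embryonic stem cells (ES) and in aggregates of differentiating cells grown from it, called embryoid bodies (EB), each with and without p150. A gene was counted as a collagen when its symbol was Col, a number, the letter a and a number, with nothing else. The deposited RNA table held 44 such genes among 53560 rows, and each of both ChIP tables held 43 among 20462 genes, with Col26a1 as the gene not used there. By class there were 11 fibrillar collagens, 6 basement membrane network collagens (the Col4 genes), 3 short-chain network collagens, 9 FACIT collagens (fibril-associated collagens with interrupted triple helices), 6 beaded filament collagens (the Col6 genes), the anchoring fibril collagen Col7a1, 4 transmembrane collagens, 2 multiplexins, and Col26a1 and Col28a1 as other collagens.

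Wild type (WT) ES cells in serum medium with LIF, the cytokine that holds them undifferentiated, were set beside a CRISPR/Cas9 knockout (KO) of p150, and beside EB of both genotypes grown in that medium with LIF left out. The protein p150 is the largest part of CAF-1, which places histones H3 and H4 on newly replicated DNA. RNA-seq had 2 libraries in each of the 4 groups, and ChIP-seq of H3K4me3, a mark of active promoters, and of H3K27me3, the mark left by Polycomb repression, had 1 library per mark and group. The labels do not give the day of EB culture or say whether the KO line is 1 clone.

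Collagens are secreted or membrane proteins whose 3 chains wind into a triple helix. Fibrillar chains build the fibrils of connective tissue, Col4 chains form the sheet of basement membranes, FACIT and Col6 chains attach to fibrils or lie between fibrils and cells, and multiplexins sit in basement membranes. In embryos and in EB, basement membrane chains are known from the endoderm layer, and fibrillar chains from the mesenchyme that appears with mesoderm.

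Promoter sequences are shown for 5 members on which the results below turn, taken from RefSeq on GRCm38.p6, with bases upstream of the start only and ending before the locus of the RNA table. Col3a1 and Col5a1 are the fibrillar members with the largest H3K4me3 gains in WT EB, Col4a5 and Col4a6 lie head to head, and Col18a1 is the collagen with the highest RNA level in ES cells. Capitals mark the TATA motif TATAAA, read as TTTATA where it lies on the reverse strand. They also mark the CCAAT box, whose reverse reads ATTGG, and the GC box core GGGCGG, whose reverse reads CCGCCC.
Col3a1, chr1:45311288-45311537, plus strand: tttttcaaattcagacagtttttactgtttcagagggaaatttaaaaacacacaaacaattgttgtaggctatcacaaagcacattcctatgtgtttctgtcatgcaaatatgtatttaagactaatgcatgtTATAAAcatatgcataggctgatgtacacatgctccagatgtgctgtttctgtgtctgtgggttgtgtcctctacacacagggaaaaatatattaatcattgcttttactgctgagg
Col5a1, chr2:27886175-27886424, plus strand: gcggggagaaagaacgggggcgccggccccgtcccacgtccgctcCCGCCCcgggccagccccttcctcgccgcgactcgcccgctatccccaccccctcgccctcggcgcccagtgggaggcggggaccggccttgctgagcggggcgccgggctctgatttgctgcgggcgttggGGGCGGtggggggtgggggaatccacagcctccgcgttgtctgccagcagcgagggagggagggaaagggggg
Col4a5, chrX:141475169-141475384, plus strand: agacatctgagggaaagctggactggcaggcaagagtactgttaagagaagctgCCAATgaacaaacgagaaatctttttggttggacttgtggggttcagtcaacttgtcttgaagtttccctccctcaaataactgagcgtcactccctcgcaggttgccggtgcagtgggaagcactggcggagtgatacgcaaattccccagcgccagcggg
Col4a6, chrX:141474077-141474326, minus strand: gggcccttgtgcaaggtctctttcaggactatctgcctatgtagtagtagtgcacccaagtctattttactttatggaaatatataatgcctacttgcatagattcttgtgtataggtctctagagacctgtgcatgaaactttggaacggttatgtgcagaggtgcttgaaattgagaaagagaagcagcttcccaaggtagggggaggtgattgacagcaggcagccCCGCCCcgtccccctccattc
Col18a1, chr10:77166549-77166780, minus strand: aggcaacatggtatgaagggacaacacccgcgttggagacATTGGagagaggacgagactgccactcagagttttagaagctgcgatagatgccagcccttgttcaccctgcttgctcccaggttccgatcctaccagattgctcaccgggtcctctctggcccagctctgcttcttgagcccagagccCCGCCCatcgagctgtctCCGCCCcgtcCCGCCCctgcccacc
The Col3a1 stretch held 0 CpG dinucleotides and 1 TATAAA, and the Col5a1 stretch held 28 CpG and 2 GGGCGG. The Col18a1 stretch held 11 CpG, that of Col4a5 8 and that of Col4a6 3.

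RNA levels are FPKM, fragments scaled by transcript length and library size, so levels of different genes can be compared per length. FPKM totals ran from 641692 to 781913 per library, and with no read counts the depth is unknown. Chaf1a, which encodes p150, ranged from 38.0 to 49.5 FPKM in ES and from 31.6 to 35.0 in EB over both genotypes, so its RNA level did not separate WT from KO libraries and the genotype rests on the labels. Summed FPKM of 6 pluripotency genes, a check of the ES label, was 2784 and 2793 in WT ES, 2319 and 2377 in KO ES, 129 and 208 in WT EB, and 1522 and 1228 in KO EB. The labels do not say that both libraries of a group came from separate cultures, so each p-value reflects how far these libraries scatter, and that scatter may be technical. In bulk RNA, fewer cells of a type and less RNA per cell cannot be told apart.

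Summed collagen RNA was high in WT EB and low in the other 3 groups. The sum over the 44 genes was 166 and 175 FPKM in WT ES, 209.5 and 228 in KO ES, 1055 and 1355 in WT EB, and 229 and 349 in KO EB. Both WT EB libraries lay above the 6 others. The mean over WT EB was 7.07 times that over WT ES, while KO EB was at 1.32 times KO ES. The makeup differed as well. In ES, Col18a1, the multiplexin whose C-terminal fragment is endostatin, made up 80.8% and 85.6% of collagen FPKM in WT and 75.4% and 77.2% in KO. In WT EB the fibrillar class held 51.0% and 58.2%, with Col3a1 alone at 33.1% and 36.3%. In KO EB Col18a1 again led with 48.3% and 40.1%, followed by Col4a1 with 20.5% in each library. The number of collagen genes at 1 FPKM or more was 9 in each WT ES library, 11 and 13 in KO ES, 27 and 29 in WT EB, and 12 and 20 in KO EB.

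**Figure D1:**
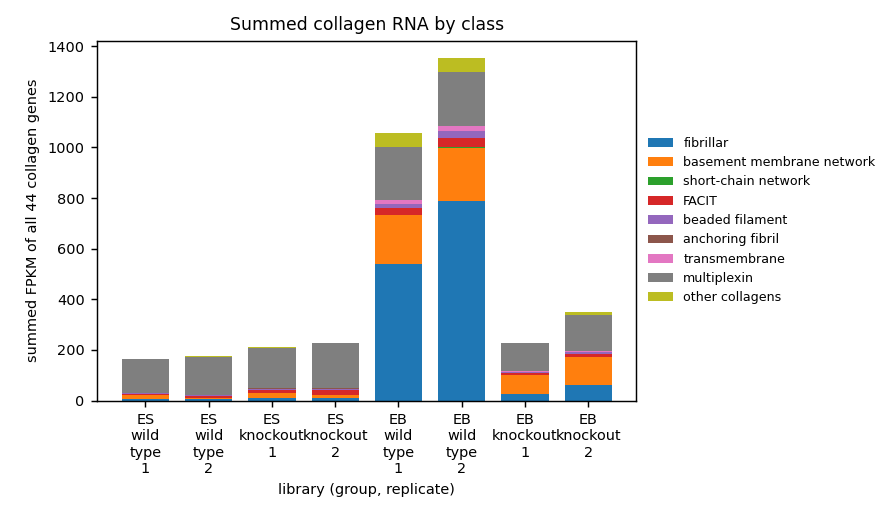
Summed FPKM (y axis, linear from 0) of the 44 collagen genes in each of the 8 RNA libraries (x axis), stacked by collagen class. The WT EB libraries reach 1055 and 1355, the fibrillar block being the tallest, while KO EB libraries reach 229 and 349.

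Testing needed 1 FPKM or more in 2 or more libraries, which 31 of the 44 collagens and 15428 genes in all reached. Of these 31, 7 passed only through WT EB and 3 only through ES, so for those a difference was built into the selection. The 7 were Col5a2, Col6a3, Col12a1, Col14a1, Col15a1, Col22a1 and Col27a1, and for them it was built in between WT EB and every other group, KO EB included. The 3 were Col5a3, Col6a4 and Col6a5, and for them it was built in between ES and EB. The other 13 were Col11a2, Col24a1, Col4a3, Col4a4, Col8a1, Col10a1, Col19a1, Col20a1, Col6a6, Col7a1, Col17a1, Col25a1 and Col28a1, whose highest single value was 3.26 FPKM, for Col7a1 in KO ES replicate 1. Differences are in log2(FPKM + 1), which understates the change of low genes, and a gene is said to have risen or fallen where limma's adjusted p was under 0.05. In WT cells, 26 of the 31 tested collagens rose from ES to EB, where 36.1% of all tested genes rose, and 3 fell, where 24.8% of all fell. The median difference was 2.54 over the collagens and 0.12 over all genes. From KO ES to KO EB, 8 collagens rose (17.1% of all genes) and 4 fell (12.0%), with a median of 0.52 against 0.07 over all genes. In EB, 1 collagen was higher in KO than in WT (20.0% of all genes) and 23 were lower (25.9%), with a median of -1.46 against -0.06. The 3 collagens that passed only through ES were the 3 that fell in WT, and Col6a4 and Col6a5 were among the 4 that fell in KO. All 7 collagens that passed only through WT EB were among the 26 that rose in WT and the 23 that were lower in KO EB. Without them, and without the 592 genes of the whole table that passed the same way, 19 of 24 collagens rose in WT (33.7% of all genes). Counted in that way, 16 of 24 were lower in KO than in WT EB (23.2%) and 1 was higher (20.8%). That count was added after seeing the data. In ES, limma called 0 collagens higher (0.421% of all genes) and 0 lower (0.0778%).

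Over all 44 genes with no test, both WT EB libraries were above both WT ES libraries for 34 collagens (31.9% of the 32032 genes above 0 in any library) and below both for 4 (24.9%). Both KO EB libraries were above both KO ES libraries for 22 (24.1%) and below for 9 (22.6%). In EB, KO was above WT in this way for 6 collagens (23.3%) and below for 30 (28.9%). In ES, KO was above WT for 27 (19.3%) and below for 4 (13.0%). The comparisons of EB with ES in WT and of KO with WT in EB share the WT EB libraries, so a gene high in those libraries counts in both.

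**Figure D2:**
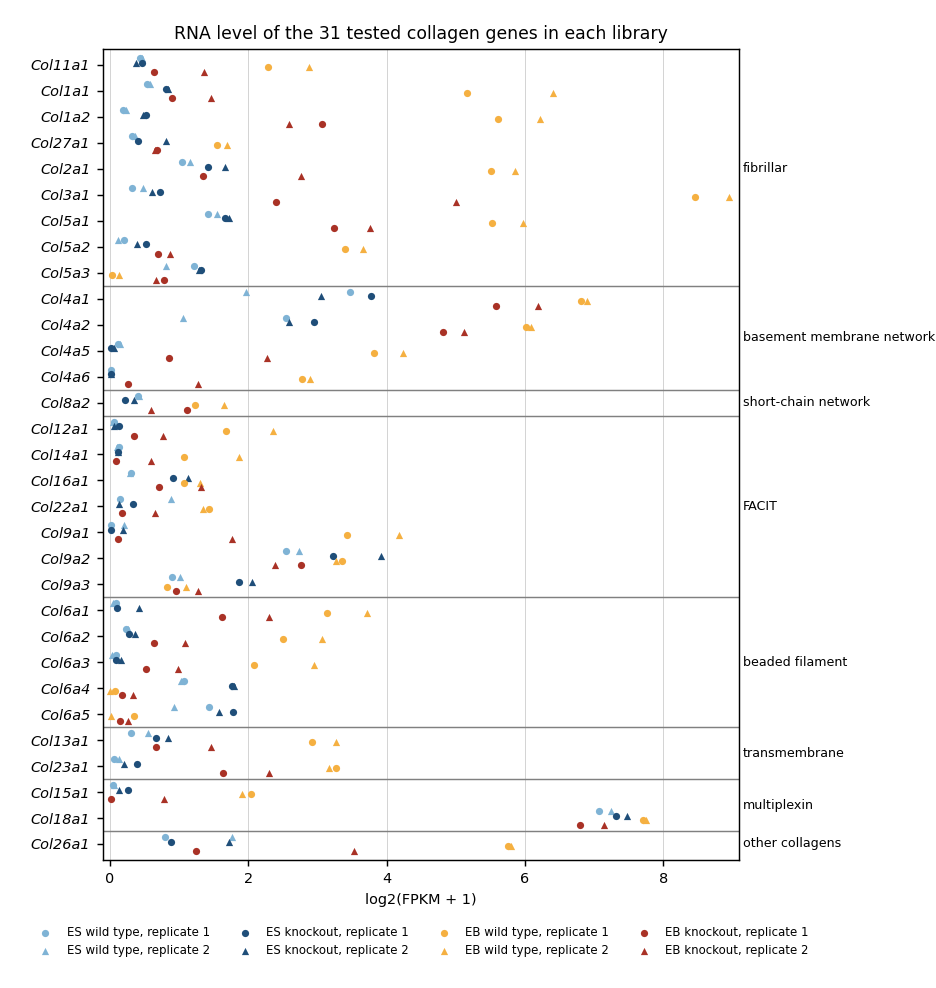
RNA level as log2(FPKM + 1) (x axis) of the 31 tested collagen genes (y axis, grouped by class), with 1 point per library, colours for the 4 groups and circles or triangles for replicates 1 and 2. The WT EB points lie to the right for most genes, and Col5a3, Col6a4 and Col6a5 are the 3 genes that fell in WT EB.

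Fibrillar collagens showed the widest range. Col3a1, the chain of type III collagen found in skin, vessels and embryonic mesenchyme (ENSMUSG00000026043.18, mm10 chromosome 1, 45311538 to 45349706), was at 0.249 and 0.392 FPKM in WT ES, 0.647 and 0.518 in KO ES, 349 and 492 in WT EB, and 4.30 and 30.96 in KO EB. Both WT EB libraries were far above both KO EB libraries, and KO EB was above all 4 ES libraries. The rise from WT ES to WT EB was 8.30 ± 0.71 (SE, adjusted p = 0.0001), and that from KO ES to KO EB was 3.04 ± 0.71 (adjusted p = 0.0204), which missed the threshold without either KO ES library (0.0759 and 0.0758). In EB the KO was lower by 5.00 (log2 difference -5.00 ± 0.71, adjusted p = 0.00204).

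The chains of type I collagen, the main fibril protein of bone, tendon and skin, are Col1a1 and Col1a2. Col1a1 (chromosome 11, 94936224 to 94953042) was at 0.453 and 0.500 FPKM in WT ES, 0.754 and 0.785 in KO ES, 34.8 and 83.8 in WT EB, and 0.862 and 1.75 in KO EB. Col1a2 (chromosome 6, 4504814 to 4541544) was at 0.143 and 0.181 in WT ES, 0.437 and 0.395 in KO ES, 47.6 and 73.2 in WT EB, and 7.34 and 5.02 in KO EB. For both genes the WT EB libraries stood above all others. In WT, Col1a1 rose by 5.22 ± 0.39 (adjusted p = 6.62e-05) and Col1a2 by 5.69 ± 0.25 (2.31e-05). In KO, Col1a2 rose by 2.32 ± 0.25 (adjusted p = 0.00198), whereas the Col1a1 difference was 0.35 ± 0.39 (adjusted p = 0.530). KO against WT in EB gave -4.61 ± 0.39 (adjusted p = 0.000432) for Col1a1 and -3.08 ± 0.25 (0.00038) for Col1a2. The ratio of the 2 chains also differed between the WT and KO EB libraries, and it was not tested. Col1a1 divided by Col1a2 was 0.731 and 1.15 in WT EB but 0.117 and 0.349 in KO EB, groups that do not overlap, and it was 1.73 to 3.16 in ES, where both genes were under 1 FPKM.

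Col5a1 and Col5a2 encode chains of type V collagen, which starts and sizes type I fibrils. Col5a1 (chromosome 2, 27886425 to 28039514) was at 1.68 and 1.93 FPKM in WT ES, 2.16 and 2.29 in KO ES, 44.9 and 61.9 in WT EB, and 8.41 and 12.6 in KO EB. Col5a2 (chromosome 1, 45374321 to 45503282) was at 0.158 and 0.0837 in WT ES, 0.437 and 0.313 in KO ES, 9.59 and 11.6 in WT EB, and 0.617 and 0.819 in KO EB. The WT EB libraries were again the highest for both genes. Col5a1 rose in both genotypes, by 4.26 ± 0.23 in WT and by 1.81 ± 0.23 in KO (adjusted p = 0.0028), while Col5a2 rose by 3.37 ± 0.18 in WT and differed by 0.32 ± 0.18 in KO (adjusted p = 0.215). KO EB were lower than WT EB by 2.25 for Col5a1 (log2 difference -2.25 ± 0.23, adjusted p = 0.000716) and by 2.75 for Col5a2 (-2.75 ± 0.18, 0.000237). As Col5a2 passed the filter only through WT EB, its differences from WT EB were built into its selection. Col5a1 divided by Col5a2 was 4.68 and 5.33 in WT EB and 13.6 and 15.4 in KO EB.

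Of the other fibrillar members, Col2a1, the cartilage collagen, had 44.5 and 56.7 FPKM in WT EB against 1.54 and 5.81 in KO EB, a log2 difference of -3.63 ± 0.42. Col11a1 and Col27a1 fell by 1.58 and 0.95 in the same comparison, which for Col27a1 was built into its selection through WT EB. Col5a3, the third type V chain, went the other way. It was at 1.33 and 0.747 FPKM in WT ES, 1.49 and 1.44 in KO ES, 0.0238 and 0.0929 in WT EB, and 0.721 and 0.585 in KO EB. It fell by 0.93 from WT ES to WT EB (log2 difference -0.93 ± 0.19, adjusted p = 0.00443). Having passed the filter only through ES, it had this difference built into its selection. It was the collagen called higher in KO EB (0.64 ± 0.19, adjusted p = 0.0296), a call that ended when any 1 of the 4 EB libraries was left out (highest adjusted p = 0.107). Col2a1, Col11a1, Col27a1 and Col5a3 fell outside the rule for genes given in full, and their values are given after having been seen.

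The basement membrane network genes lie as head-to-head pairs. Col4a1 (chromosome 8, 11198423 to 11312826) and Col4a2 (chromosome 8, 11312805 to 11449287) overlap by 22 bases at their starts, and whether reads were assigned by strand is not given in the sources used here. Col4a1 was at 10.1 and 2.93 FPKM in WT ES, 12.7 and 7.30 in KO ES, 111 and 118 in WT EB, and 46.9 and 71.6 in KO EB. Col4a2 was at 4.82 and 1.07 in WT ES, 6.76 and 5.00 in KO ES, 63.7 and 66.7 in WT EB, and 27.2 and 33.8 in KO EB. In both genes every EB library was above every ES library, and both WT EB libraries were above both KO EB libraries. Col4a1 rose by 4.13 ± 0.48 in WT (adjusted p = 0.000324) and by 2.47 ± 0.48 in KO (0.0111), and Col4a2 by 4.25 ± 0.43 and 2.199 ± 0.43 (0.00018 and 0.0113). The rises in KO missed the threshold without KO ES replicate 2 (adjusted p = 0.0546 for Col4a1 and 0.0540 for Col4a2) or KO EB replicate 2 (0.0659 and 0.0637). KO against WT in EB was -0.97 ± 0.48 (adjusted p = 0.141, 95% interval -2.10 to 0.17) for Col4a1 and -1.08 ± 0.43 (0.0789, -2.10 to -0.06) for Col4a2, neither called. In WT ES, replicate 1 was above replicate 2 for both genes, and as the fit pools the spread of the groups this enters every test of them. Without WT ES replicate 1 both were called lower in KO EB (adjusted p = 0.0383 for Col4a1 and 0.00657 for Col4a2), as they were without replicate 2 (0.0378 and 0.00626). The Col4a1 to Col4a2 ratio ran from 1.46 to 2.73 over the 8 libraries and from 1.72 to 2.12 in EB.

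Col4a5 (chromosome X, 141475385 to 141689234) and Col4a6 (chromosome X, 141165403 to 141474076), the pair deleted together in a form of Alport syndrome, start 1308 bases apart. Col4a5 was at 0.0840 and 0.106 FPKM in WT ES, 0.0160 and 0.0417 in KO ES, 13.2 and 17.9 in WT EB, and 0.802 and 3.83 in KO EB. Col4a6 was at 0.0161 and 0.00758 in WT ES, 0.00756 and 0.00708 in KO ES, 5.85 and 6.41 in WT EB, and 0.197 and 1.43 in KO EB. Both genes were near 0 in ES, highest in WT EB and between these levels in KO EB, with no overlap between groups at EB. KO against WT in EB was -2.47 ± 0.42 for Col4a5 (adjusted p = 0.00382) and -2.06 ± 0.31 for Col4a6 (0.00247). In KO, Col4a5 rose by 1.52 ± 0.42 from ES to EB (adjusted p = 0.0357), a call held in 1 of 8 fits that each left out 1 library, and Col4a6 was at 0.76 ± 0.31 (0.109). The ratio of Col4a5 to Col4a6 was 2.25 and 2.79 in WT EB and 4.06 and 2.68 in KO EB. Col4a3 and Col4a4, the chains of the mature glomerular network, are listed at 0.0167 FPKM or less in every library.

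Col18a1 (chromosome 10, 77052178 to 77166548) was the one collagen above 100 FPKM in every library. It was at 134 and 149.9 FPKM in WT ES, 158 and 176 in KO ES, 208 and 213 in WT EB, and 110.3 and 140.0 in KO EB. WT EB was above every other library, and KO EB was below both KO ES libraries. It rose by 0.57 ± 0.13 in WT (adjusted p = 0.00853, and 0.0553 without WT ES replicate 1), while the difference in KO was -0.42 ± 0.13 (0.0538). KO EB was lower than WT EB by 0.76 (log2 difference -0.76 ± 0.13, adjusted p = 0.00439). The other multiplexin, Col15a1, was at 0.0304 and 0.0394 in WT ES, 0.202 and 0.0907 in KO ES, 3.12 and 2.76 in WT EB, and 0.0110 and 0.719 in KO EB. It was above 1 FPKM only in the WT EB libraries, and KO against WT in EB was -1.58 ± 0.26 (adjusted p = 0.00322). Having passed the filter only through WT EB, it had this difference built into its selection.

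Col6a1, Col6a2 and Col6a3, the chains of the classical type VI trimer of beaded filaments, all rose in WT and were lower in KO than in WT EB. Col6a1 was at 0.0685 and 0.0294 FPKM in WT ES, 0.0755 and 0.344 in KO ES, 7.77 and 12.1 in WT EB, and 2.07 and 3.91 in KO EB. Col6a2 was at 0.175 and 0.200 in WT ES, 0.209 and 0.288 in KO ES, 4.65 and 7.38 in WT EB, and 0.553 and 1.12 in KO EB. Col6a3 was at 0.0601 and 0.0247 in WT ES, 0.0664 and 0.119 in KO ES, 3.25 and 6.75 in WT EB, and 0.441 and 0.977 in KO EB. For all 3, WT EB libraries were highest and KO EB libraries lay between them and ES. They rose by 3.35 ± 0.30, 2.54 ± 0.25 and 2.46 ± 0.30 in WT, and KO EB differed from WT EB by -1.46 ± 0.30 (adjusted p = 0.00693), -1.92 ± 0.25 (0.00144) and -1.77 ± 0.30 (0.0038). As Col6a3 passed the filter only through WT EB, its differences from WT EB were built into its selection. From KO ES to KO EB, Col6a1 rose (1.69 ± 0.30, adjusted p = 0.00778), and Col6a2 and Col6a3 were at 0.54 and 0.63 (0.142 and 0.159). Col6a1 divided by Col6a2 was 1.67 and 1.64 in WT EB but 3.75 and 3.48 in KO EB. The ratio was not tested, and in KO EB it rests on the low Col6a2 levels of 0.553 and 1.12 FPKM. The newer type VI genes had the opposite course, and are singled out after their values were seen. Col6a4 was at 1.10 and 1.04 FPKM in WT ES and 2.38 and 2.48 in KO ES, against 0.0571 and 0 in WT EB and 0.13 and 0.261 in KO EB. Col6a5 was at 1.70 and 0.906 in WT ES and 2.44 and 1.99 in KO ES, against 0.274 and 0.0162 in WT EB and 0.107 and 0.201 in KO EB. Both passed the filter only through ES, so a difference between ES and EB was built into their selection. Both fell in both genotypes, Col6a4 by 1.01 in WT and 1.52 in KO, and Col6a5 by 0.996 and 1.48. These 4 calls were held in all 8 fits that each left out 1 library.

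Among FACIT collagens, Col9a1, Col9a2 and Col9a3 encode the chains of type IX collagen, which coats cartilage fibrils. Col9a1 was at 0.0163 and 0.15 FPKM in WT ES, 0.0135 and 0.138 in KO ES, 9.75 and 17.1 in WT EB, and 0.0877 and 2.40 in KO EB. Col9a2 was at 4.82 and 5.66 in WT ES, 8.39 and 14.1 in KO ES, 9.21 and 8.65 in WT EB, and 5.81 and 4.22 in KO EB. Only Col9a1 was low in ES and high in WT EB, and Col9a2 had its highest value in a KO ES library. Col9a1 rose by 3.69 ± 0.51 in WT and was lower in KO than in WT EB (-2.86 ± 0.51, adjusted p = 0.00443). Col9a2 fell from KO ES to KO EB (-0.999 ± 0.25, adjusted p = 0.0265), a call held in 4 of 8 such fits. Its difference of -0.74 ± 0.25 between KO and WT in EB had an adjusted p of 0.0499, and the call held in 2 of 8. Col9a3 was at 0.859 and 1.01 FPKM in WT ES, 2.64 and 3.14 in KO ES, 0.776 and 1.15 in WT EB, and 0.945 and 1.43 in KO EB, so it was high in KO ES alone. It fell from KO ES to KO EB (-0.84 ± 0.20, adjusted p = 0.0211), a call held in 5 of 8 such fits, and was named after its values were seen. Col12a1, which binds the surface of type I fibrils, was at 0.0423 and 0.0316 in WT ES, 0.0933 and 0.0454 in KO ES, 2.19 and 4.13 in WT EB, and 0.268 and 0.698 in KO EB. Col12a1 rose by 1.96 ± 0.26 in WT and was lower in KO than in WT EB (-1.46 ± 0.26, adjusted p = 0.00449). Col14a1 and Col22a1 also fell in that comparison (-1.12 and -0.97), and both calls ended without WT EB replicate 2 (adjusted p = 0.0776 and 0.0877) or KO EB replicate 1 (0.103 and 0.144). As Col12a1, Col14a1 and Col22a1 passed the filter only through WT EB, their differences from WT EB were built into their selection. Between KO and WT in EB, Col16a1 was at -0.18 (adjusted p = 0.574).

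The transmembrane collagens Col13a1 and Col23a1, which are shed from the cell surface, rose in WT. Col13a1 was at 0.233 and 0.470 FPKM in WT ES, 0.587 and 0.782 in KO ES, 6.58 and 8.68 in WT EB, and 0.587 and 1.75 in KO EB. Col23a1 was at 0.0411 and 0.0927 in WT ES, 0.317 and 0.155 in KO ES, 8.64 and 8.002 in WT EB, and 2.09 and 3.92 in KO EB. Both were lower in KO than in WT EB without overlap, by -2.04 ± 0.29 (adjusted p = 0.00199) and -1.26 ± 0.24 (0.006). Col23a1 rose from KO ES to KO EB (1.66 ± 0.24, adjusted p = 0.00453) and Col13a1 was at 0.31 ± 0.29 (0.447). Col26a1, a collagen known from testis and ovary, was at 0.742 and 2.39 FPKM in WT ES, 0.849 and 2.31 in KO ES, 53.1 and 54.9 in WT EB, and 1.36 and 10.6 in KO EB. Its WT EB libraries were close to each other, KO EB replicate 2 was far above replicate 1, and KO against WT in EB was -3.39 ± 0.71 (adjusted p = 0.00809). Col8a2, a short-chain collagen of Descemet's membrane in the eye, was at 0.325 and 0.341 in WT ES, 0.166 and 0.268 in KO ES, 1.33 and 2.13 in WT EB, and 1.18 and 0.511 in KO EB. Col8a2 rose in WT by 1.02 ± 0.24, and its EB difference of -0.58 ± 0.24 was not called (adjusted p = 0.0849, and 0.0427 without KO EB replicate 1). Col8a1 reached 0.944 FPKM at most, Col28a1 0.0786, and Col7a1, the anchoring fibril collagen of skin, lay between 0.178 and 0.820 apart from the KO ES value given above.

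**Figure D3:**
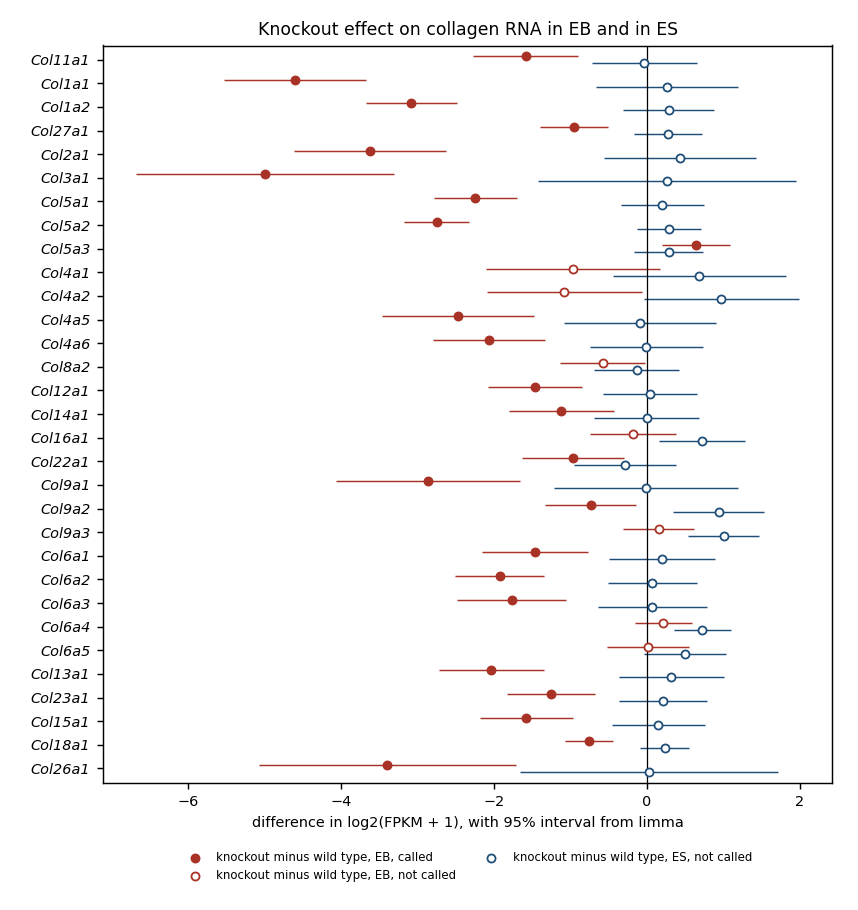
Difference between KO and WT in log2(FPKM + 1) (x axis) for the 31 tested collagens (y axis), in EB (red) and in ES (blue), with limma's 95% interval and filled points where the adjusted p was under 0.05. In EB 23 filled points lie below 0 and 1 (Col5a3) above, and in ES all points are open.

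Of the 24 collagens called between KO and WT in EB, 20 were called in all 8 fits that each left out 1 library. The others were Col5a3, Col9a2, Col14a1 and Col22a1. Of the 29 called between EB and ES in WT, 26 were called in all 8, with Col16a1, Col18a1 and Col22a1 as the exceptions. Of the 12 called in KO, 6 were (Col1a2, Col5a1, Col6a1, Col6a4, Col6a5 and Col23a1). Col5a2, Col6a3, Col12a1, Col15a1 and Col27a1, among both the 20 and the 26, passed the filter only through WT EB. Among the 26, Col14a1 did so too, and Col5a3, Col6a4 and Col6a5 passed only through ES. Selection favoured their calls in every such fit, and the share of all-gene calls held in all 8 was not computed. In KO EB, replicate 2 was above replicate 1 for 26 of the 31 collagens, and in WT EB for 25. The share of all genes was not computed for this. Bringing every library to one FPKM total shifted the all-gene median between KO and WT EB from -0.06 to -0.25, and the calls over all genes from 3082 higher and 3992 lower to 2305 and 5214. Quantile normalization moved them to 0.04, 3625 and 3414. All 24 collagen calls remained under the first and 22 under the second, without Col9a2 and Col22a1. Quantile normalization also shifted the all-gene median from 0.12 to -0.10 in the WT comparison of EB with ES (from 5576 higher and 3824 lower to 4580 and 5104), where 28 of 29 collagen calls remained. In the KO comparison of EB with ES the all-gene calls went from 2640 higher and 1847 lower to 2141 and 2311 at one FPKM total, and all 12 collagen calls remained.

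In ES no collagen was called between KO and WT. Positive differences were found for 24 of the 31 tested collagens (23 after quantile normalization) against 8289 of 15428 genes, with a median of 0.23 against 0.02. At an unadjusted p under 0.05 there were 4 collagens, or 12.9% of those tested, which is near the 13.6% of all genes (2105) and no result about them. They were Col9a3 (1.00 ± 0.20, adjusted p = 0.0939), Col9a2 (0.94 ± 0.25, 0.170), Col6a4 (0.73 ± 0.16, 0.109) and Col16a1 (0.72 ± 0.24, 0.244), named after their values were seen. Limma called 0 collagens in this comparison under each alternative run. The difference itself between the KO effects in EB and in ES was tested as an interaction. It was negative and called for 22 collagens (18.6% of all genes) and called positive for 0 (12.7%), with a median of -1.67 over the collagens and -0.10 over all genes. Without the genes that passed only through WT EB, 17 of 24 collagens were called negative (16.5% of all genes). Col5a2 and Col15a1, named next, also passed only through WT EB. Of the 22, 10 were called in all 8 fits that each left out 1 library, namely Col1a1, Col1a2, Col2a1, Col3a1, Col5a1, Col5a2, Col6a2, Col13a1, Col15a1 and Col18a1. Without WT ES replicate 1 the count of negative calls was 13, and it was 14 without WT ES replicate 2, KO ES replicate 2 or WT EB replicate 2. For this contrast the all-gene calls went from 1959 higher and 2874 lower to 1436 and 3766 at one FPKM total and to 2471 and 2284 with quantile normalization.

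Collagen chains are hydroxylated and folded in the endoplasmic reticulum before export, and the enzymes for these steps were read from lists. Over all tested genes 25.9% were lower in KO than in WT EB and 20.0% higher, with a median of -0.06, and the counts of each list stand against these shares. Genes that passed the filter only through WT EB are in both the counts and the shares. The lists were not counted without them, so selection may favour some of the lower calls. Of 14 tested genes for prolyl and lysyl hydroxylation, 12 were lower in KO than in WT EB and 0 higher, with a median of -0.78. P4ha2, a prolyl 4-hydroxylase subunit, was at 40.0 and 35.3 FPKM in WT EB and 9.92 and 12.6 in KO EB, against 4.43 to 6.496 in ES (-1.66 in KO against WT EB, adjusted p = 0.000531). P4ha3 and P3h2 were at -1.43 and -1.82. P4ha1, the other main catalytic subunit, was at 67.4 and 47.5 in WT EB and 68.2 and 64.7 in KO EB, which overlap (0.23, adjusted p = 0.525). It rose from ES to EB in both genotypes, by 2.65 and 2.72. Plod2, the lysyl hydroxylase of telopeptides, fell by 0.73 (adjusted p = 0.00293). Of 11 folding and export genes, 5 were lower and 1 higher (Tmem38b, 0.99), with a median of -0.45. Serpinh1, the collagen chaperone HSP47, was at 13.2 and 11.3 FPKM in WT ES, 27.6 and 35.0 in KO ES, 494 and 514 in WT EB, and 107 and 158 in KO EB. It rose by 5.26 in WT and by 2.03 in KO, and KO EB were lower than WT EB (-1.95, adjusted p = 0.000716). Fkbp10 and Fkbp14, prolyl isomerases, were at -1.46 and -1.66.

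Outside the cell, with the same 25.9% of all genes lower and 20.0% higher, the 6 tested genes for propeptide removal were split, 3 lower in KO EB and 2 higher (Adamts14 at 1.30 and Pcolce2 at 0.99). Adamts3 was at -0.85. Adamts2, the procollagen N-proteinase, had 4.05 and 7.47 FPKM in WT EB against 0.147 and 0.492 in KO EB (-2.32). It passed the filter only through WT EB, so this difference was built into its selection. Of 9 tested genes for crosslinking and fibril assembly, 8 were lower and 0 higher, with a median of -1.80. Postn, a matricellular protein, had 189 and 153 FPKM in WT EB and 2.22 and 6.88 in KO EB (-5.08, adjusted p = 0.00033). Lum and Dcn, small proteoglycans that bind fibrils, were at -4.68 and -3.12. Sparc, a collagen-binding protein, had 445 and 454 FPKM in WT EB and 188 and 230.4 in KO EB (-1.10, adjusted p = 0.0141). Lox, the lysyl oxidase that crosslinks fibrils, was not tested and is listed at 0.377 FPKM or less in every library. Of 11 basement membrane partners 6 were lower, with the laminin chains Lama1 and Lamb2 among them (-1.37 for each), and 1 was higher (Nid2, 0.82). Of 5 tested collagen receptors 3 were lower, Mrc2 at -2.24, Itgb1 at -0.98 and Ddr1 at -0.70. Of 8 genes for collagen-cleaving proteases and their inhibitors, 6 were lower, with Mmp14 at -1.27 and Timp2 at -1.25, and 1 was higher, the inhibitor Timp1 (1.24).

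Markers of other cell types that EB could hold differed between the genotypes too, and their part in the result was not tested. The share of all tested genes was 25.9% lower and 20.0% higher. As for the pathway lists, markers that passed the filter only through WT EB were not taken out of the counts. Of 9 tested fibroblast and stroma markers, 7 were lower in KO than in WT EB and 1 higher (Thy1, 3.04). Their summed FPKM was 880 and 853 in WT EB, 129 and 302 in KO EB, and 78.0 to 157 in ES, with Fap listed at 0 in 7 of 8 libraries. Pdgfra, a receptor of mesenchymal cells, had 51.4 and 47.4 FPKM in WT EB and 1.78 and 5.52 in KO EB. Of 5 tested parietal endoderm markers 3 were lower and 1 higher, with sums of 43.1 and 40.4 in WT EB, 19.1 and 24.8 in KO EB, and 1.78 to 6.38 in ES. In WT ES this sum was 5.09 in replicate 1 and 1.78 in replicate 2, the libraries that differed in Col4a1. Of 5 tested visceral endoderm markers 2 were lower and 1 higher, which is near the shares of all genes, and their median difference was positive (0.57). Of these, Afp and Ttr were lower. The sums were 124 and 196 in WT EB, 27.8 and 80.9 in KO EB, and 1.40 to 6.003 in ES. For cartilage, Sox9 was lower in KO EB (-1.76), while Acan and Matn3 were higher (0.90 and 1.33). The sum was 8.96 and 10.5 in WT EB, 5.76 and 6.99 in KO EB, and 3.37 to 5.81 in ES. All 6 cardiomyocyte markers and 5 of 6 endothelium markers were lower in KO EB, with sums of 1254 and 1124 and of 197 and 127 in WT EB, and of 18.8 and 102 and of 47.6 and 79.1 in KO EB. In ES these sums were 5.72 to 14.3 and 20.0 to 31.4. All 6 pluripotency genes were higher in KO EB, with a median difference of 3.43. In every one of the stroma, endoderm, cartilage, endothelium and cardiomyocyte sums KO EB replicate 2 was above replicate 1, as it was for 26 of the 31 tested collagens. In WT EB replicate 2 was above replicate 1 for 25 collagens. There the stroma, parietal endoderm, endothelium and cardiomyocyte sums were lower in replicate 2, and the visceral endoderm and cartilage sums higher. The link between these sums and the collagens was not tested.

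ChIP values are a signal per gene with 1 library per group, so the differences have no replicate check. The values of both marks rose with locus length over all genes (Spearman's rho 0.59 to 0.69 for H3K27me3 and 0.43 to 0.49 for H3K4me3, across genes). Ratios were therefore taken within a gene, with 0.5 added, and a change means 2-fold or more. Collagen loci ran from 7.11 to 468 kb, with a median of 114 kb. The WT EB library of H3K27me3 had values in steps of 0.04, and the 3 other H3K27me3 libraries and all H3K4me3 libraries in steps of 0.0267. Of the values under 4, 97.7% to 98.7% were whole multiples of the step for H3K27me3 and 81.3% to 85.5% for H3K4me3, within 0.02 of a step. The WT EB library of H3K27me3 thus has another scale, and its part in the results with that library was not tested. EB were treated with trypsin before fixation, which is not stated for ES cells, so treatment and stage cannot be told apart for the marks.

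From WT ES to WT EB, H3K4me3 was higher at 11 of 43 collagens (8.18% of all genes) and lower at 4 (7.47%), the latter near the share of all genes. Col3a1 went from 0.534 to 8.96, Col5a1 from 12.8 to 45.7, Col4a1 from 12.5 to 35.1, Col4a2 from 14.5 to 35.0 and Col9a1 from 2.16 to 6.43. The others that gained were Col2a1, Col4a6, Col6a1, Col11a1, Col12a1 and Col27a1. All 11 were called higher in RNA, but so were 26 of the 31 tested collagens, so this match alone is no result. Col12a1 and Col27a1 passed the filter only through WT EB, so their RNA rise was built into the selection. Others of the 26 did not pass 2-fold. The 4 that lost the mark were Col6a4 (11.2 to 2.19), Col6a5 (9.07 to 2.67), Col6a6 and Col7a1. From KO ES to KO EB the mark was higher at 0 collagens (0.811% of all genes), near that share, and lower at 1 (0.494%), Col6a5. At 1.5-fold it was higher at 2 (4.69% of all genes) and lower at 5 (3.42%) in KO. Col3a1 went from 0.614 to 1.17 there, and Col5a1 from 14.5 to 20.9. In EB, KO was lower than WT at 5 collagens (2.23% of all genes), namely Col3a1 (1.17 against 8.96), Col9a1 (1.57 against 6.43), Col5a2 (1.49 against 4.16), Col11a1 (5.42 against 12.5) and Col5a1 (20.9 against 45.7). It was higher at 3 (5.87%), near the share of all genes, namely Col6a4 (6.43 against 2.19), Col7a1 and Col11a2. After subtracting the median of genes in the same bin of locus length, 3 were lower, and the share of all genes at that setting is not given. In ES, 0 collagens were higher (0.166% of all genes) and 0 lower (0.0586%). Not every gene with large RNA changes passed 2-fold. Col1a1 had 7.07, 6.40, 10.0 and 7.39 and Col1a2 had 1.60, 2.24, 3.44 and 2.56 in WT ES, KO ES, WT EB and KO EB. Col18a1, the abundant ES collagen, had the highest H3K4me3 of the 43 collagens in every group, at 98.7, 79.3, 64.0 and 78.9 in the same order. At Col4a5, H3K4me3 was lower in WT EB (9.18) than in KO EB (14.5), while its RNA was higher in WT EB.

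The collagen medians of H3K27me3 lay above the all-gene medians in every group. The collagen median was 18.9 in WT ES against 1.65 over all genes, 17.7 against 1.63 in KO ES, 20.4 against 1.56 in WT EB and 23.0 against 1.79 in KO EB, without correction for locus length. From WT ES to WT EB, 4 of 43 collagens were higher (8.56% of all genes), Col9a2 (3.68 to 12.04), Col18a1 (3.15 to 7.84), Col8a2 and Col20a1. One collagen was lower (4.21%), Col4a1 (60.7 to 23.4). In KO 2 were higher (3.72%), Col9a2 and Col18a1, and 0 lower (0.357%), and Col4a1 went from 77.6 to 63.9. Both counts of higher collagens are near the shares of all genes and no result about collagens. In EB, KO was higher than WT at 4 collagens (2.30% of all genes), Col4a1 (63.9 against 23.4), Col4a2 (79.5 against 36.5), Col5a1 (75.6 against 36.8) and Col11a2 (25.2 against 10.4). This count was 2 after the same subtraction, again without a share of all genes. At 1.5-fold 5 collagens were higher (11.8% of all genes), near that share. At 2-fold KO was lower than WT in EB at 0 collagens (5.09%). In ES, KO was higher at 0 (0.274%) and lower at 0 (0.411%). Col3a1, Col1a2 and Col1a1, the fibrillar genes with the largest RNA differences in WT, did not pass 2-fold. Col3a1 had 2.80, 2.56, 1.56 and 1.89 in WT ES, KO ES, WT EB and KO EB, Col1a2 had 12.5, 11.8, 6.6 and 8.62, and Col1a1 had 15.4, 13.2, 18.4 and 22.5.

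**Figure D4:**
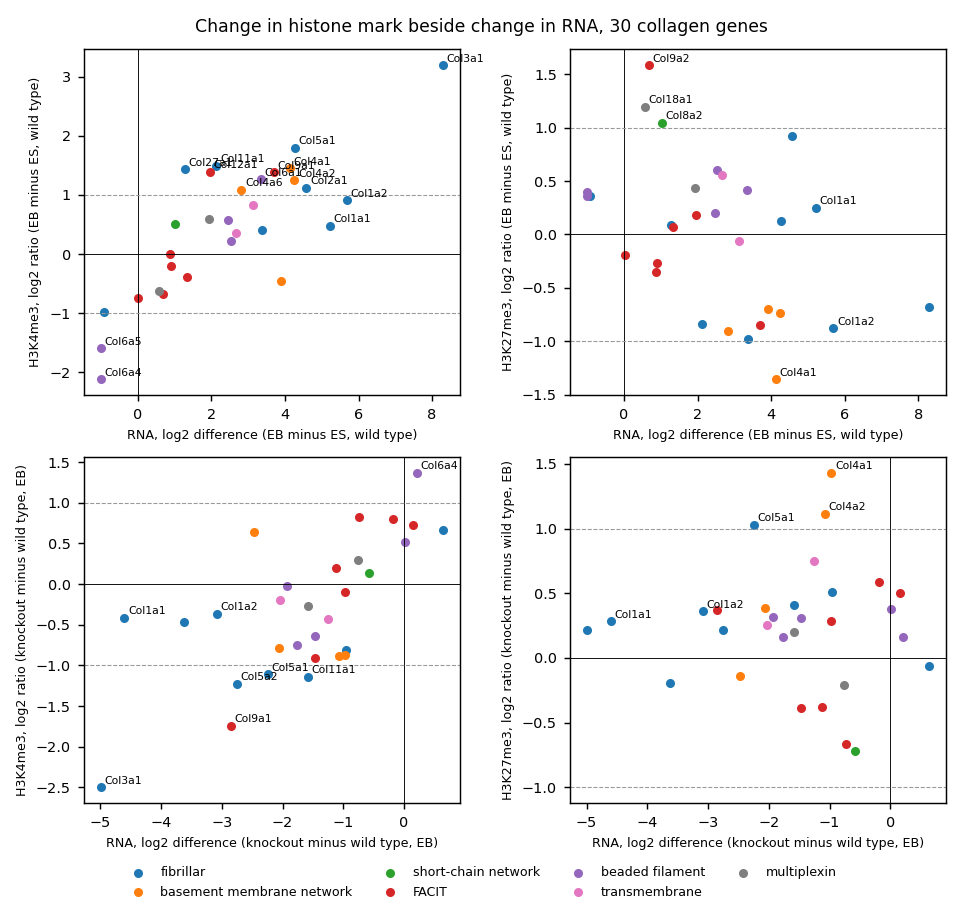
Log2 ratio of the mark (y axis; H3K4me3 left, H3K27me3 right) beside the log2 RNA difference (x axis) for 30 collagens, from WT ES to WT EB (top) and between KO and WT EB (bottom), coloured by class, with dashed lines at 2-fold. Col3a1 lies at the far end of both H3K4me3 panels, with RNA differences of 8.30 and -5.00, and Col4a1 and Col4a2 lie at the top of the lower right panel.

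Over the 30 tested collagens with ChIP rows, the RNA difference and the H3K4me3 log2 ratio from WT ES to WT EB had Pearson's r of 0.79 and Spearman's rho of 0.68. Between KO and WT EB these were 0.67 and 0.62. For H3K27me3 they were -0.44 and -0.42, and -0.02 and -0.01. These describe points across genes, which share the same libraries and are not independent replicates. Of the 30 genes, 7 passed the filter only through WT EB and 3 only through ES, so selection in part set their RNA differences. The correlations were not computed without these genes or over all genes, so they are no result particular to collagens.

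Promoter windows of 300 bases, 250 before and 50 after a RefSeq start, were found for 35 of the 44 collagens, 38 windows in all. GGGCGG, the core of GC boxes, was present on either strand in 23 of 38 collagen windows (60.5%) and in 35.7% of 32851 windows in the table. Collagen windows also had a higher median GC content, 59.8% against 52.7%, and its part in that share was not tested. CCAAT was in 13 (34.2%) against 37.4%, and TATAAA in 5 (13.2%) against 13.6%. The observed over expected CpG ratio, the CpG count times length over the product of C and G counts, had a median of 0.456 in collagen windows and 0.384 in all, and ran from 0 to 0.902. Among windows of tested genes with H3K4me3 changes, Col3a1 had a ratio of 0, Col9a1 0 and 0.043 in its 2 windows, Col5a1 0.809, Col4a1 0.902 and Col4a2 0.818. Genes of both CpG-poor and CpG-rich starts were thus among those whose H3K4me3 and RNA were higher in WT EB. A match of letters is a description and not a binding site.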

How the data were processed

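The deposited RNA table holds FPKM made by the authors, 1 column per library. The submitters' processing notes list the build mm10 and the tools DESeq2, HTSeq, Bowtie2, Cufflinks 2.2.1 and STAR 2.6.0a, without saying which made which table. The deposited ChIP signal, which the authors name RPKM on promoters, rose with locus length and was used as a signal per gene. How it was scaled, and whether input was subtracted, is not given in the sources used here. The 4 input libraries were not analysed here.

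For 120 second entries of a symbol the entry with the higher mean was kept. log2(FPKM + 1) of genes with at least 1 FPKM in 2 libraries was fitted with limma 3.58.1 (R 4.3.3), 1 mean per group over all 8 libraries, eBayes with trend and two-sided tests. P-values were adjusted by Benjamini-Hochberg across the 15428 genes of each contrast. ChIP ratios used value + 0.5. Leaving out a library leaves a group with 1 library, which is then assumed to vary like the others. The tested genes stayed those chosen on all 8 libraries, so a difference built in by the filter remains in these fits.

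Genes given in full were, per class, the 2 with the highest mean FPKM, the 2 called between KO and WT EB with the smallest adjusted p, any called between KO and WT ES, the pairs Col4a1 and Col4a2, Col4a3 and Col4a4, Col4a5 and Col4a6, and Col1a1 and Col1a2. Of each pathway list up to 3 called genes were named by adjusted p, plus Serpinh1, Lox, P4ha1, Plod2 and Sparc. Members, lists and rules were chosen with earlier results of these data known.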

Additional observations from a re-analysis of the deposited data

Results flagged for a closer look

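The effect of the knockout differed between EB and ES for 22 collagens by the interaction test (limma, adjusted p under 0.05), with all 22 differences negative, where 18.6% of all tested genes were called negative. Of the 22, 5 passed the filter only through WT EB (Col5a2, Col6a3, Col12a1, Col15a1 and Col27a1), so selection favoured a negative difference for them. Without the genes that passed in this way, 17 of 24 collagens were called negative (16.5% of all genes). The values below are the KO minus WT difference in EB minus that in ES, in log2(FPKM + 1). Among fibrillar collagens they were -4.87 for Col1a1, -3.37 for Col1a2, -4.06 for Col2a1, -5.26 for Col3a1, -2.45 for Col5a1, -3.05 for Col5a2, -1.55 for Col11a1 and -1.23 for Col27a1. Among basement membrane chains they were -2.05 for Col4a2, -2.38 for Col4a5 and -2.06 for Col4a6. Type VI chains had -1.66 for Col6a1, -2.0 for Col6a2 and -1.83 for Col6a3. FACIT members had -2.85 for Col9a1, -1.67 for Col9a2 and -1.51 for Col12a1. The others were -2.36 for Col13a1, -1.47 for Col23a1, -1.72 for Col15a1, -0.99 for Col18a1 and -3.42 for Col26a1. Of the 22, 10 were called in all 8 fits that each left out 1 library. The call for Col26a1 was lost in 7 of those 8 fits.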

How the results depend on the processing

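Counts are of called collagens. Where no share of all genes stands beside a count in this section, the count alone is no result about collagens. With the filter at 5 FPKM, 17 collagens were tested, of which 8 passed only through WT EB, so that selection in part sets the counts. They were 17 higher (37.3% of all genes) and 0 lower (28.2%) for EB against ES in WT, 2 lower in KO (13.9%), and 0 higher (23.4%) and 15 lower (26.9%) for KO against WT in EB. Without the 8, 9 of 9 were higher in WT EB (33.0%) and 7 of 9 lower in KO EB (22.5%). Without a filter, 2 were lower for EB against ES in KO and 12 interactions were called. Leaving out 1 library gave 23 to 27 higher and 3 lower for EB against ES in WT, 4 to 12 higher and 2 to 4 lower in KO, 0 to 1 higher and 20 to 24 lower for KO against WT in EB, and 13 to 23 negative interactions.

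Correlations of same-numbered replicates' deviations ran from 0.07 to 0.31, so the numbers were not taken to pair libraries. With the replicate block the counts were 26 and 3 for EB against ES in WT, 8 and 5 in KO, 1 and 22 for KO against WT in EB (Col9a2 was lost) and 23 interactions.

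Signs turned in 4 cases, none of them called, all for KO against WT in EB. Leaving out 1 library gave -0.49 to 0.13 for Col16a1 (the latter without KO EB replicate 1), -0.14 to 0.18 for Col6a5 (negative without WT EB replicate 2, and -0.04 without KO EB replicate 2) and -0.0062 to 0.31 for Col9a3 (the former without KO EB replicate 2). The cause was not tested.

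For ChIP counts at 1.5-fold, shares of all genes stand in parentheses. H3K27me3 was higher at 6 (15.4%) and lower at 12 (15.1%) for EB against ES in WT, and higher at 10 (12.0%) and lower at 2 (3.87%) in KO. For KO against WT in EB it was higher at 5 (11.8%), which is near the share of all genes, and lower at 2 (9.41%). In ES it was higher at 1 (3.58%) and lower at 1 (5.03%). H3K4me3 was lower at 9 (15.6%) for EB against ES in WT, higher at 2 (4.69%) and lower at 5 (3.42%) in KO, and higher at 10 (12.7%) and lower at 13 (10.2%) for KO against WT in EB. With 0.1 added, H3K27me3 was lower at 2 for EB against ES in WT and H3K4me3 at 3 in KO. Centred by locus length, H3K27me3 was higher at 2 and H3K4me3 lower at 3 for KO against WT in EB. With 2 RNA libraries and 1 ChIP library per group, precision is limited by their number, and sequencing depth is unknown.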
